A study of Mus musculus with 13 samples.

Results

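Crystallins are the soluble proteins that fill the cells of the eye lens, and this account gives the transcripts of 9 of them in mouse retina. The members are Cryaa, Cryab, Cryba1, Cryba2, Cryba4, Crybb1, Crybb2, Crybb3 and Crygs. Each was taken as the probe sets that carry its symbol and no other, which gave 1 probe set per member and 9 of the 19937 genes measured. RNA from the pooled retinae of 1 mouse was hybridized to 1 Affymetrix whole-gene array, and 13 mice were measured. KO mice lack the transcriptional coactivator PGC-1α in all tissues and are on the C57 BL/6 background, and WT mice are of the strain C57 BL/6 NRj. The KO dark (n = 3) and WT dark (n = 4) mice were adapted to the dark for 16 h and not exposed to light. The KO light (n = 3) and WT light (n = 3) mice had the same dark adaptation, and then 2 h of bright white light with dilated pupils. The methods give an age of 6 to 13 weeks. The methods also give a recovery overnight in darkness between light and analysis. The exact interval between light and collection of the retinae for the arrays was not settled by the sources used here. The labels give all light-exposed mice as male and all dark mice as female, apart from the male WT dark 4. Light and sex therefore cannot be told apart in the comparisons of light with dark. By the methods, WT mice were bought from a supplier and KO mice were given by another laboratory. Genotype and source of the mice therefore cannot be told apart in the comparisons of KO with WT. Values are log2 intensities of a probe set. They serve to compare arrays for 1 gene and not 1 gene with another.

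The crystallins belong to unrelated protein families. The α-crystallins are small heat shock proteins that hold unfolding proteins in solution, while the β- and γ-crystallins share a fold of Greek key motifs and pack densely as structural proteins of lens fibre cells. Crystallin transcripts are also known in retinal neurons and glia, where they have been described to move with injury and light, and lens tissue lies next to the retina during dissection. Cryba4, Crybb1, Crybb2 and Crybb3 lie on chromosome 5, and the other members lie on chromosomes 1 (Cryba2), 9 (Cryab), 11 (Cryba1), 16 (Crygs) and 17 (Cryaa). RefSeq holds a promoter window for 8 of the 9 members on the mouse assembly GRCm38.p6, from 250 bases before to 50 bases after the start of the gene, and 4 are printed because their genes include the 3 with the widest range between arrays and 1 of the chromosome 5 genes. The Cryaa window lies at chr17:31677681-31677980 on the plus strand. The Cryba1 window lies at chr11:77725244-77725543 on the minus strand. The Crybb1 window lies at chr5:112255570-112255869 on the plus strand. The Crygs window lies at chr16:22811361-22811660 on the minus strand. The sequences run 5′ to 3′ along the gene. Capitals mark TGCTGA on either strand (TCAGCA on the other), part of the element that Maf transcription factors bind. They also mark TATAAA, likewise searched on either strand.
Cryaa: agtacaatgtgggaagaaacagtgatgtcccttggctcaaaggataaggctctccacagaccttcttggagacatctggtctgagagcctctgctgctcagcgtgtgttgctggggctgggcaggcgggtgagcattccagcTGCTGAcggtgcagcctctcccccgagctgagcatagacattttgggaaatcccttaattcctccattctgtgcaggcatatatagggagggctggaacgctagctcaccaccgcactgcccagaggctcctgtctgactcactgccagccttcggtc
Cryba1: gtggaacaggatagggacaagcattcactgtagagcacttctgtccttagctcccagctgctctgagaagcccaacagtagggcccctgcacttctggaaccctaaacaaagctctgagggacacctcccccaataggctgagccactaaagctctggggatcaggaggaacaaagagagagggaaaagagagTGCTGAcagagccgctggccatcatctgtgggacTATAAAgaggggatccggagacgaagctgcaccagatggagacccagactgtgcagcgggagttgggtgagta
Crybb1: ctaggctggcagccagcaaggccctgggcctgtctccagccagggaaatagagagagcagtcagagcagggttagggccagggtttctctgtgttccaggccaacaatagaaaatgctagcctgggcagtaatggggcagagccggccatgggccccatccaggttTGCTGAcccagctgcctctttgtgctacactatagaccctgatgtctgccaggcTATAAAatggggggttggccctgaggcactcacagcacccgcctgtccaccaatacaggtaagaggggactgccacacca
Crygs: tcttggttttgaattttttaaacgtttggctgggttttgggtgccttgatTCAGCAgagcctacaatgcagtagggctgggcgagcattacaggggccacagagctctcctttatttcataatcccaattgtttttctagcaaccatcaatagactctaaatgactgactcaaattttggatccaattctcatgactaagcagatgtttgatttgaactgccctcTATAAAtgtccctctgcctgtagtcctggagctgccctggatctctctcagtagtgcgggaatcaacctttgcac
All motifs were searched on both strands, and overlapping matches counted. TGCTGA was found in 7 of the 8 member windows and in 19.5% of all 32851 windows. TATAAA was found in 4 of 8 members (Cryba1, Cryba2, Crybb1 and Crygs) and 13.6% of all windows. The AP-1 letters TGANTCA were found in 3 of 8 members (Cryaa, Cryba2 and Crygs) and 7.81% of all windows. The core letters of a heat shock element, GAANNTTC or TTCNNGAA, were found in 1 of 8 (Cryba1) and in 15.1% of all windows. The STAT letters TTCNNNGAA were found in 0 of 8 and 8.3% of all windows. Such a match says only that the letters stand in the window.

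A pair of arrays went against their labels over all genes, which bears on every value for KO light. KO light 3 correlated across genes at a mean r of 0.997 with WT dark 1 to 3 and 0.992 with KO light 1 and 2, while WT dark 4 correlated at 0.989 with WT dark 1 to 3 and 0.997 with KO light 1 and 2. The groups below hold replicates 1 to 3 as labelled. The main results for KO light are also given with the array labelled WT dark 4 in place of KO light 3, called the exchanged arrays. That exchange goes by the expression values of these same arrays. Calls and p-values with it are therefore conditional on the exchange, above all for genes high in WT dark 4, and are no separate evidence. Rod genes such as Gnat1 and Sag averaged 11.8 to 12.3 (log2, 7 genes) on every array, so that the markers of the labelled tissue were present on each. In bulk tissue, fewer cells of a type and less RNA per cell cannot be told apart.

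The α-crystallins differed from each other in how far they varied. Cryaa measured 10.70, 10.18 and 8.41 in KO dark 1 to 3, 9.59, 9.19 and 7.80 in WT dark 1 to 3, and 9.06 in WT dark 4. After light it measured 11.06, 9.02 and 8.08 in KO light 1 to 3 and 11.03, 7.49 and 9.27 in WT light 1 to 3. KO light 1 and WT light 1 were the highest arrays, the lowest array was also a light-exposed one (WT light 2), and all groups overlapped. The range of Cryaa was 3.57 (log2), a ratio of 11.9. Cryab, the second α-crystallin and a chaperone made in many tissues besides the lens, measured 9.82, 9.75 and 9.48 in KO dark, 9.67, 9.83 and 9.53 in WT dark 1 to 3, and 9.63 in WT dark 4. It measured 10.06, 9.64 and 9.61 in KO light and 9.95, 9.29 and 9.49 in WT light. The same pair, KO light 1 and WT light 1, was highest here too, but the range was only 0.77, a ratio of 1.71, and the groups overlapped.

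Among the acidic β-crystallins, Cryba1, which encodes βA3/A1-crystallin and is also known from astrocytes and pigment epithelium, varied most. It measured 9.31, 8.72 and 6.79 in KO dark, 7.91, 7.51 and 6.16 in WT dark 1 to 3, and 7.79 in WT dark 4. It measured 10.21, 7.77 and 6.38 in KO light and 10.26, 5.70 and 7.84 in WT light. The highest and the lowest of the 13 arrays were thus both WT light arrays, 4.55 apart (log2) or a ratio of 23.4. Cryba2 measured 7.69, 7.63 and 6.75 in KO dark, 7.14, 7.11 and 6.67 in WT dark 1 to 3, 7.14 in WT dark 4, 8.64, 6.98 and 6.51 in KO light, and 8.50, 6.74 and 7.08 in WT light. Replicate 3 was the lowest array in 3 of its 4 groups. Cryba4 measured 6.85, 6.73 and 6.46 in KO dark, 6.49, 6.71 and 6.58 in WT dark 1 to 3, 6.65 in WT dark 4, 7.16, 6.47 and 6.43 in KO light, and 7.29, 6.62 and 6.48 in WT light. Apart from KO light 1 and WT light 1, its arrays lay within 6.43 to 6.85, and for both genes the groups overlapped.

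The basic β-crystallins behaved alike in having KO light 1 and WT light 1 above every other array. Crybb1 measured 8.75, 8.57 and 8.19 in KO dark, 8.23, 8.20 and 8.12 in WT dark 1 to 3, 8.20 in WT dark 4, 9.20, 7.98 and 8.07 in KO light, and 9.32, 8.23 and 8.32 in WT light. Crybb2, the β-crystallin that dominates the adult lens and is known to be made in retinal ganglion cells, measured 8.39, 8.37 and 8.03 in KO dark, 8.04, 8.08 and 7.85 in WT dark 1 to 3, 7.99 in WT dark 4, 8.78, 7.99 and 7.95 in KO light, and 8.97, 7.82 and 8.03 in WT light. Their ranges were 1.33 and 1.14 (log2), and the groups overlapped. Crybb3 measured 7.49, 7.53 and 7.49 in KO dark, 7.39, 7.40 and 7.46 in WT dark 1 to 3, 7.46 in WT dark 4, 7.85, 7.49 and 7.47 in KO light, and 7.99, 7.44 and 7.47 in WT light. It was the least variable member, with a range of 0.60, and its 3 KO dark arrays lay above the 4 WT dark arrays by margins of a few hundredths of a log2 unit.

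Crygs encodes γS-crystallin, the γ-crystallin of the adult lens cortex. It measured 8.90, 8.71 and 7.36 in KO dark, 7.73, 7.46 and 6.35 in WT dark 1 to 3, 7.90 in WT dark 4, 9.95, 7.54 and 6.77 in KO light, and 9.87, 6.72 and 7.88 in WT light. KO light 1 was highest and WT dark 3 lowest, 3.60 apart (log2) or a ratio of 12.1, and the groups overlapped.

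**Figure D1:**
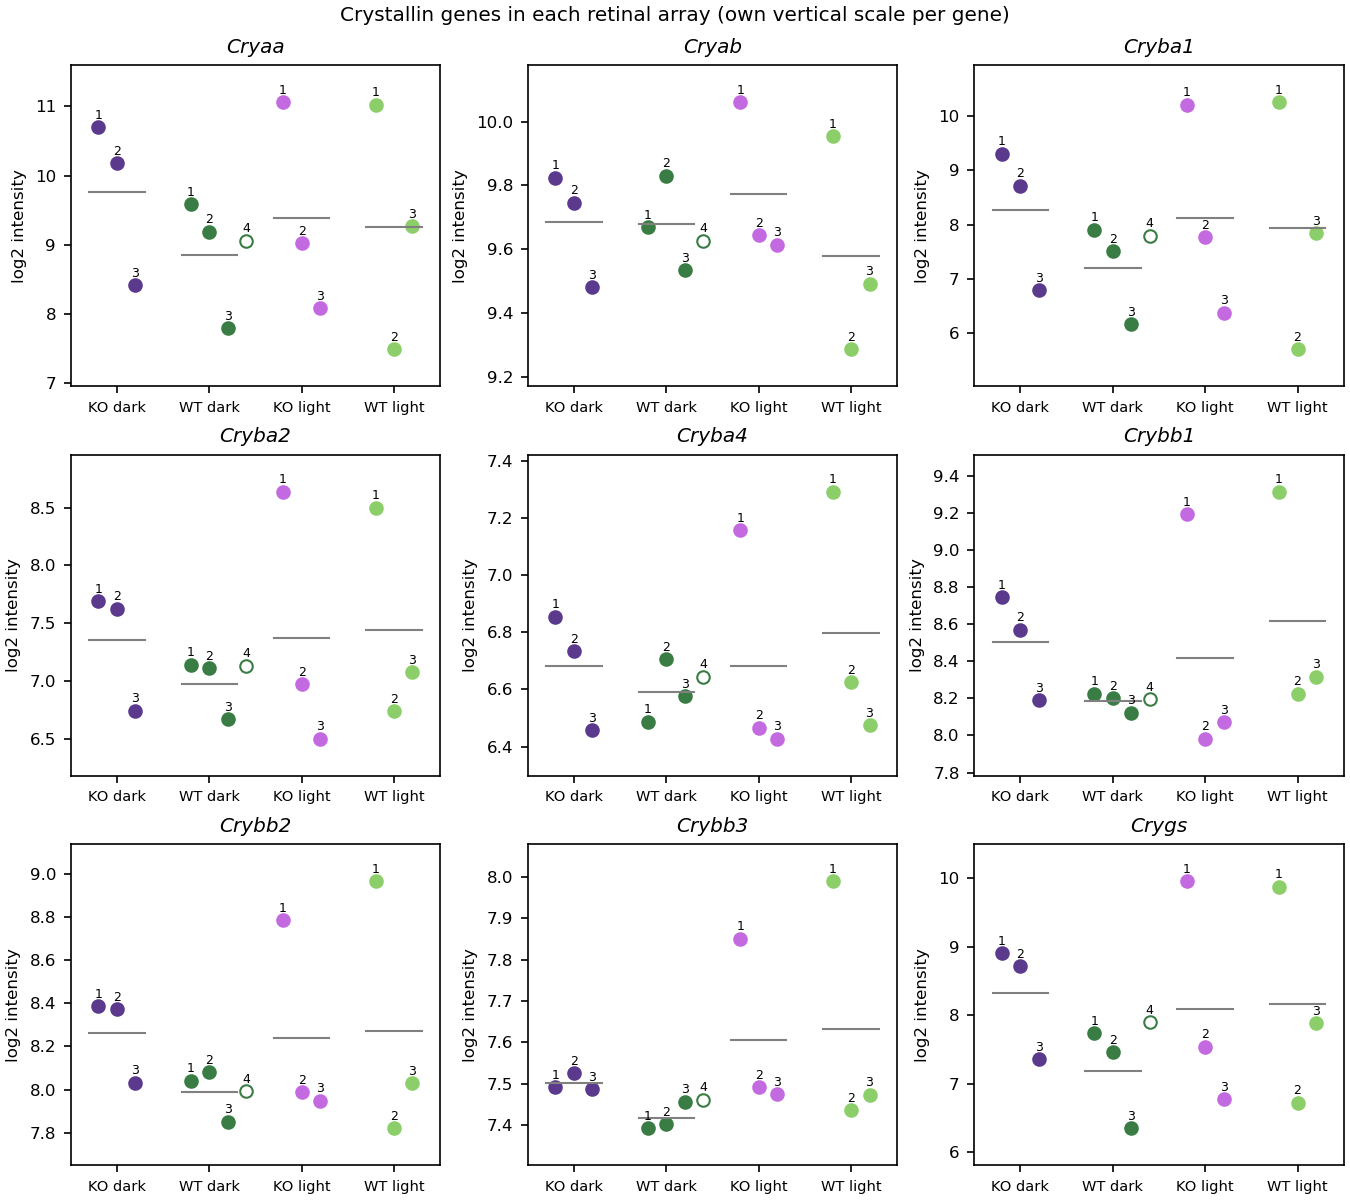
Log2 intensity of each of the 9 crystallins (1 panel per gene with its own vertical scale) in KO dark, WT dark, KO light and WT light. Points are arrays with their replicate number, grey lines are means of replicates 1 to 3, and the open point is WT dark 4. In every panel replicate 1 of KO light and replicate 1 of WT light stand above all other arrays.

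The highest crystallin values thus lay on the same single arrays. KO light 1 and WT light 1 were the 2 highest of the 13 arrays for 9 of 9 members, an order found in 0.712% of all genes. Replicate 1 was highest in each of the 4 groups for 5 of 9 members (Cryaa, Cryba1, Cryba2, Crybb1 and Crygs), against 0.782% of all genes. Within WT light alone, Cryba1 differed between mouse 1 and mouse 2 by the whole 4.55 of its range, more than any member's difference between group means. The members ranked high among all 19937 genes in the standard deviation within groups, whose median over genes was 0.0848. Cryba1 was ranked 3 (SD 1.70), Cryaa 4 (1.39), Crygs 5 (1.28) and Cryba2 8 (0.79), and the least variable member, Crybb3, was ranked 821 (0.19). The members also moved together from array to array. Over the 36 pairs of members, r across the 13 arrays ran from 0.67 to 0.99 with a median of 0.88. Without KO light 1 and WT light 1 it ran from 0.05 to 0.99 with a median of 0.73, and over deviations from the group means the median was 0.94. Cryba1 followed the mean of the other members most closely in order (rho 0.99 over 13 arrays) and Crybb3 least (rho 0.58).

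The first comparison asks whether loss of PGC-1α goes with other crystallin levels in the unexposed retina. In KO dark against WT dark the mean was higher in KO for 9 of 9 members, with a median difference of 0.32 (log2) beside 0.00 over all genes, but 0 of 9 members were called. Calls come from the limma fit over all genes and need both an adjusted p under 0.05 and a change in ratio to 1.2 or above, or to 0.87 or below, and 0.0752% of all genes were called here. Crygs had the largest difference, 8.33 ± 0.84 in KO and 7.18 ± 0.73 in WT (SD, n = 3 each), or 1.14 with a standard error of 0.84 and an adjusted p of 0.905 by limma. For Cryba1 the difference was 1.08 (95% interval -1.35 to 3.52) and for Cryaa 0.90 (-1.10 to 2.90), while for Cryab it was 0.01 (-0.35 to 0.36). The intervals of Cryba1 and Cryaa are thus wide enough to hold a ratio of 2 in either direction, and that of Cryab is not. Over the fits that left out 1 array of these groups the KO mean stayed higher for 8 or 9 of 9 members, with medians from 0.21 (without KO dark 1) to 0.48 (without KO dark 3). The arrays of the 2 groups did not overlap for 1 of 9 members, Crybb3, where 16.7% of all genes had no overlap. Crybb3 differed by 0.08 (SE 0.13, adjusted p 0.979 by limma). That standard error pools the spread of all 4 groups. The SD of Crybb3 was 0.02 in KO dark and 0.03 in WT dark, but 0.21 in KO light and 0.31 in WT light. With 3 arrays against 3, an exact permutation test cannot fall below 0.1.

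After light the genotypes were close in the mean and far apart between mice. In KO light against WT light the mean of KO was higher for 3 of 9 members, with a median difference of -0.03, and 0 of 9 were called where 0.176% of all genes were. Cryab had the lowest adjusted p, for a difference of 0.20 (95% interval -0.16 to 0.55, adjusted p 0.667 by limma). Cryaa differed by 0.12 (-1.88 to 2.12) and Cryba1 by 0.19 (-2.25 to 2.62). No member was without overlap, where 14.1% of all genes had none. Leaving out WT light 1, KO light 2 or KO light 3 turned the direction of most members, and leaving out another array of these groups did not. Without WT light 1 the KO mean was higher for 9 of 9 members, with a median of 0.38, and without KO light 1 it was higher for 1 of 9, with a median of -0.59. Without WT light 2 it was higher for 1 of 9 (-0.40), without WT light 3 for 3 of 9 (-0.15), and without KO light 2 or KO light 3 for 8 of 9 (0.13 and 0.27).

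The light responses depended on single arrays too, that of WT mainly on WT light 1. In KO light against KO dark 4 of 9 members had the higher mean after light, the median was -0.02, and 0 of 9 were called where 0.1% of all genes were. Cryaa differed by -0.38 (95% interval -2.38 to 1.62) and Crygs by -0.24 (-2.07 to 1.60). Without KO light 1 the mean after light was higher for 0 of 9, with a median of -0.47, and without KO light 3 for 9 of 9, with a median of 0.17. Leaving out KO dark 1 gave 9 of 9 (0.09), KO light 2 gave 8 of 9 (0.11), KO dark 2 gave 6 of 9 (0.03) and KO dark 3 gave 1 of 9 (-0.24). In WT light against WT dark 8 of 9 had the higher mean after light, the median was 0.40, and 0 of 9 were called where 0.431% of all genes were. Crygs differed by 0.98 (-0.86 to 2.81) and Cryba1 by 0.74 (-1.69 to 3.18), and Cryab by -0.10 (-0.46 to 0.26). Crybb3 had the lowest adjusted p, 0.42 by limma, for a difference of 0.22 (SE 0.13). Without WT light 1 the mean was higher for 3 of 9 with a median of -0.06. Leaving out any other array of these groups kept it higher for 7 to 9 of 9. Medians were then 0.46, 0.45 and 0.23 without WT dark 1, 2 and 3. They were 0.63 and 0.40 without WT light 2 and WT light 3. Neither response had a member without overlap, where 13.1% (KO) and 28.2% (WT) of all genes had none.

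The light response of KO minus that of WT, the interaction, was below 0 for 8 of 9 members, with a median of -0.45, and 0 of 9 passed an adjusted p of 0.05, which 0.0602% of all genes did. It ran from -1.22 in Crygs (95% interval -3.81 to 1.38) to 0.19 in Cryab (-0.31 to 0.69). Without WT light 1 it was above 0 for 7 of 9 with a median of 0.07. Over the 12 fits that left out 1 array its median ran from -0.91 without KO light 1 to that value, and was -0.08 without KO light 3. As labelled, with all 12 arrays in 1 model, no member reached an unadjusted p of 0.05 in limma in any of the 5 comparisons. This held with and without moderated variances, but some fits to fewer arrays had such members. The comparisons share groups, so they are not separate evidence.

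With the exchanged arrays many genes were called but no crystallin of the 9. The numbers of members called were 0 of 9 in KO dark against WT dark (0.878% of all genes called), 0 of 9 in KO light against WT light (8.23%), 0 of 9 in KO light against KO dark (13.3%), 0 of 9 in WT light against WT dark (4.41%), and 0 of 9 in the interaction (2.78%). The comparisons without KO light arrays changed through the shared estimate of variance alone. In KO light against WT light, the KO mean was then higher for 5 of 9 members and the median was 0.14. Cryba1 differed by 0.66 (95% interval -1.52 to 2.84) and Cryaa by 0.45 (-1.37 to 2.27). In KO light against KO dark, 6 of 9 had the higher mean after light with a median of 0.09. The interaction was above 0 for 1 of 9 and had a median of -0.29. No member was without overlap in KO light against WT light or against KO dark, where 29.3% and 38.0% of all genes had none. For the members WT dark 4 lay in the middle of the arrays, with a member mean of -0.12 (log2) relative to the 13 arrays, while that of KO light 3 was -0.62.

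**Figure D2:**
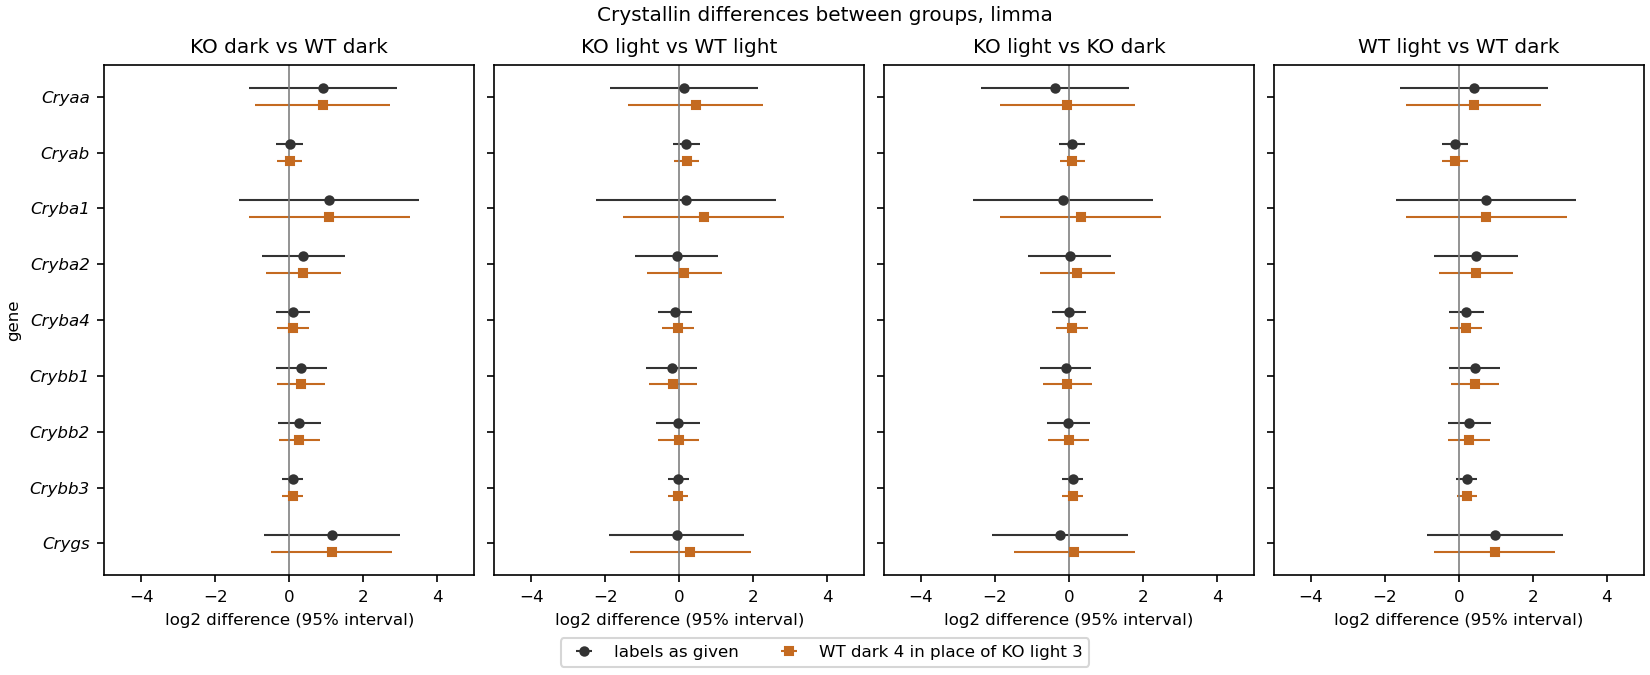
Log2 difference of each crystallin in 4 comparisons, with 95% intervals from limma, for the labels as given (circles) and with WT dark 4 in place of KO light 3 (squares). Every interval holds 0, those of Cryaa, Cryba1 and Crygs are the widest, and 0 of 9 members were called with either set of arrays.

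The other crystallins split into those that followed the members and those that did not. Crygd, a γ-crystallin of lens fibre cells, had the largest within-group standard deviation of all genes (1.75). It measured 10.47, 10.88 and 9.72 in KO dark, 9.26, 8.40 and 7.18 in WT dark 1 to 3, 9.73 in WT dark 4, 11.75, 8.41 and 7.39 in KO light, and 11.70, 7.01 and 8.81 in WT light. KO light 1 and WT light 1 were again highest, and the 3 KO dark arrays lay above the 3 WT dark arrays used in the comparison. That difference was 2.08 (SE 1.16) with an adjusted p of 0.81 by limma, and WT dark 4 lay level with KO dark 3. Crygb, Crygc and Cryga had ranges of 1.33, 1.95 and 0.55 and the same 2 arrays at the top. Crygf, Crygn, Crybg1, Crybg2 and Crybg3, and the enzymes Cryz, Cryl1 and Cryzl1, which are no lens structural proteins in mice, had ranges of 0.10 to 0.45. Of 13 measured genes named crystallin outside the members, 4 had KO light 1 and WT light 1 highest, and as labelled 0 of 13 were called in any comparison. The probe sets of Cryga, Crygb, Crygc, Crygd and Crygf belong to genes of similar sequence on chromosome 1, and signal shared between them was not tested.

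Crym followed another order. It encodes µ-crystallin, a ketimine reductase that binds thyroid hormone and has no kinship with the lens proteins. It measured 8.80, 8.91 and 8.91 in KO dark, 8.93, 8.99 and 8.94 in WT dark 1 to 3, 10.91 in WT dark 4, 10.83, 10.41 and 9.09 in KO light, and 9.30, 9.55 and 9.75 in WT light. All light-exposed arrays lay above the 6 dark arrays of the comparison, and WT dark 4 was the highest of all. As labelled it differed by 1.24 in KO light against KO dark (SE 0.31, adjusted p 0.148 by limma) and by 0.58 in WT light against WT dark (SE 0.31, adjusted p 0.368). With the exchanged arrays it was higher by 1.84 (adjusted p 2.46e-06) and 0.58 (adjusted p 0.0132), and higher by 1.18 in KO light against WT light (adjusted p 0.000146), all by limma. These p-values are conditional on the exchange, which puts the array highest for Crym into KO light.

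Genes of lens fibre cells were measured beside the crystallins. Of 6 defining markers, 3 had KO light 1 and WT light 1 as the 2 highest arrays, namely Lgsn, Lim2 and Bfsp1. Lgsn, the lens protein lengsin, measured 7.09 in KO light 1 and 7.32 in WT light 1 and 6.20 to 6.74 elsewhere. Bfsp1, which encodes the beaded filament protein filensin, measured 7.19 and 7.14 on these arrays and 6.55 to 6.92 elsewhere. Lim2, a lens membrane protein, measured 6.65 and 6.68 against 6.18 to 6.54. The water channel gene Mip was highest in WT light 1 (6.88), followed by KO dark 2 (6.67) and KO light 1 (6.63). Bfsp2 and the connexin gene Gja3 did not follow, with ranges of 6.11 to 6.26 and 7.39 to 7.65. In the whole list of 12 measured lens fibre genes 4 had this pair of arrays highest. The mean of the list was at most 7.01 in KO dark, where the 3 arrays differed by under 0.01, 6.94 to 6.97 in WT dark 1 to 3 and 6.91 in WT dark 4. After light it was 6.90 to 7.18 in KO mice and 6.93 to 7.24 in WT mice. No detection call came with the probe sets, so none can be said to be at 0.

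Across the 13 arrays the mean of the members correlated with the mean of the 6 defining lens fibre markers at r = 0.77 (rho 0.48). Without KO light 1 and WT light 1, the arrays farthest from the median of the markers, r was 0.30, so that the relation rests on these arrays. Over deviations from the group means r was 0.79. The members' mean correlated with 13 genes of reactive glia, such as Gfap and Stat3, at r = 0.17 (rho -0.05), and at r = -0.18 without WT dark 4 and KO light 1. WT light 1, among the highest arrays for the crystallins, averaged 8.13 for reactive glia genes, the lowest of the WT light arrays, and KO light 1 averaged 9.68. WT dark 4, the highest array for reactive glia (9.91), lay near the middle for the crystallins. These r are descriptions over arrays that share the groups, 8 lists were set against the members, and what part lens RNA or a response of retinal cells has in the crystallin values was not tested.

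**Figure D3:**
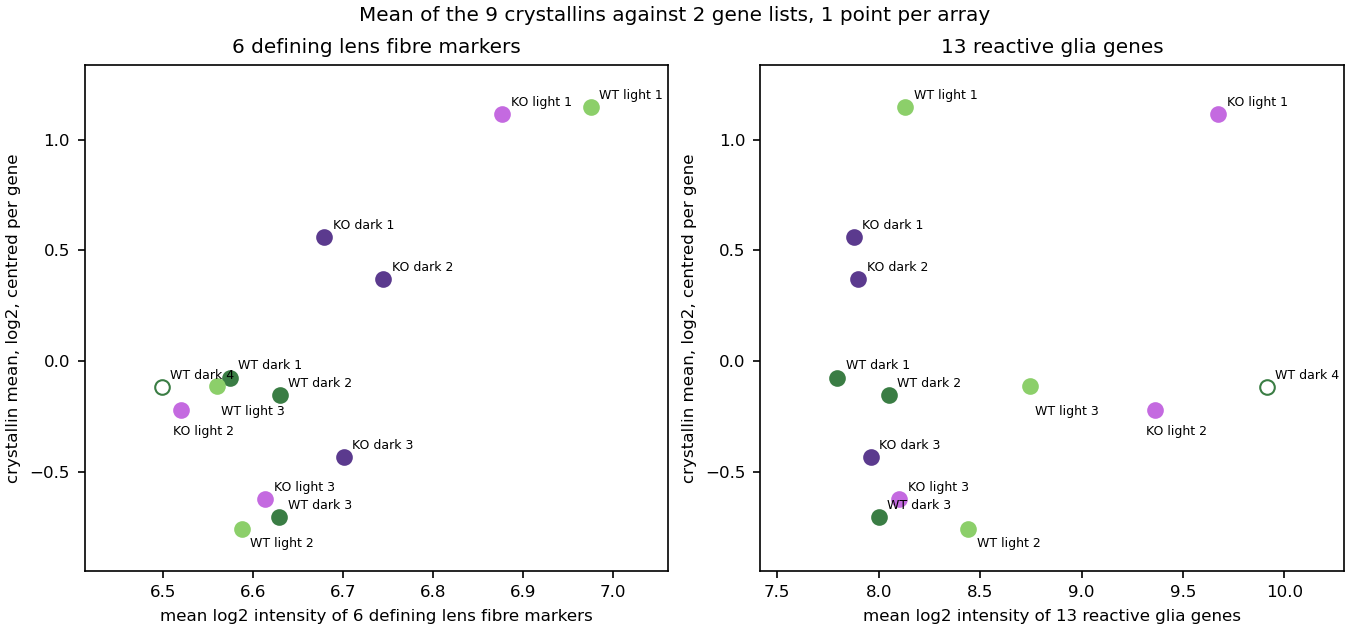
Mean of the 9 crystallins (log2, each gene centred on its mean over 13 arrays) against the mean log2 intensity of 6 lens fibre markers (left) and of 13 reactive glia genes (right), 1 point per array, with WT dark 4 open. KO light 1 and WT light 1 are highest for crystallins and for lens fibre markers (6.88 and 6.98), while their reactive glia means are 9.68 and 8.13.

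The genes with the highest Pearson's r with the members' mean over the arrays were taken from 3054 genes with a range of at least 0.5. The closest were Crygd (r = 0.93), Crygc (0.90), Crygb (0.84), Lgsn (0.80), Lim2 (0.78), Bfsp1 (0.77) and Cryga (0.73). They were followed by Krcc1 (0.65), Cdc6 (0.65) and Swi5 (0.64), over 13 arrays each. By Spearman's rho Crygd (0.90) and Crygc (0.79) stayed above the other 8 of these genes, and Krcc1 (0.69), Swi5 (0.69) and Cdc6 (0.67) came before Bfsp1 (0.65), Crygb (0.59), Lgsn (0.53), Lim2 (0.52) and Cryga (0.48). Without KO light 1 and WT light 1 r was 0.88 for Crygd, 0.73 for Crygc and 0.67 for Cdc6, against 0.47 for Crygb, 0.43 for Lim2, 0.33 for Lgsn, 0.31 for Bfsp1 and 0.26 for Cryga. For Krcc1 and Swi5 it was 0.47 and 0.42, also lower than over all 13 arrays. Of these genes, Crygb, Lim2, Lgsn, Bfsp1 and Cryga thus rested most on the 2 arrays for their high r.

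**Figure D4:**
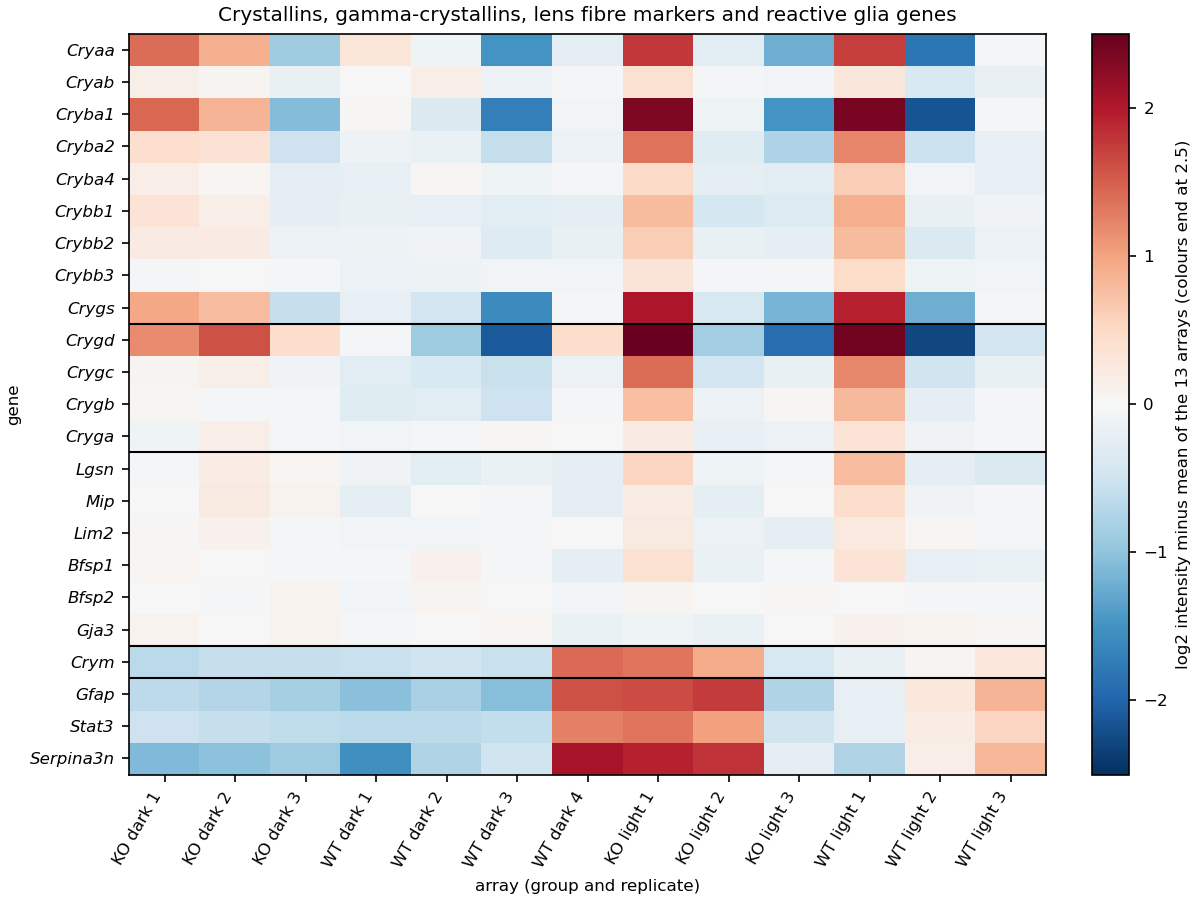
Log2 intensity minus the mean of the 13 arrays (colour) for the 9 members, 4 γ-crystallins, 6 lens fibre markers, Crym and 3 reactive glia genes, with arrays in columns. The members, the γ-crystallins and Lgsn are highest in KO light 1 and WT light 1, and Crym and the reactive glia genes are highest in WT dark 4, KO light 1 and KO light 2.

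Reactive glia genes and the chaperone relatives of the α-crystallins give the light response of the same arrays. Of 13 reactive glia genes, 13 had the higher mean in KO light than in KO dark and 13 in WT light than in WT dark, with median differences of 1.28 and 0.43, and 0 were called as labelled. With the exchanged arrays 13 of 13 were called higher in KO light against KO dark, 13 of 13 in KO light against WT light, 5 of 13 in WT light against WT dark and 10 of 13 in the interaction. These calls are conditional on the exchange, since WT dark 4 had the highest mean of these genes. The widest ranges were those of Serpina3n (3.59), A2m (3.58), Lcn2 (2.87) and Gfap (2.81). Among 9 other small heat shock proteins and heat shock factors the widest were Hspb6 (0.65), Hspb1 (0.56), Hspb2 (0.49) and Hspb8 (0.44), and 0 of 9 had KO light 1 and WT light 1 highest. Hspb6 was called higher with the exchanged arrays alone, by 0.53 in KO light against KO dark (adjusted p 4.88e-05 by limma) and by 0.32 in KO light against WT light (adjusted p 0.00284). As labelled these differences were 0.38 (adjusted p 0.147) and 0.17 (adjusted p 0.476). Hspb2, the neighbour of Cryab on chromosome 9, was highest in WT dark 3.

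Of 13 transcription factors known to act on crystallin genes, 1 was called as labelled. Rarb, the retinoic acid receptor β, was lower in KO light than in WT light with an adjusted p of 0.0461 by limma, for a difference of -0.58 on the log2 scale (SE 0.10). It measured 7.85, 8.14 and 8.25 in KO light against 8.55, 8.63 and 8.81 in WT light, and the arrays did not overlap. In the dark it measured 7.99, 7.87 and 8.07 in KO and 8.32, 8.46 and 8.32 in WT, again apart, with a difference of -0.40 and an adjusted p of 0.187. The call in light was made in 8 of the 24 fits run, with a difference below 0 in each (-0.67 to -0.47). The adjusted p was 0.00086 with the exchanged arrays, 0.136 with unmoderated variances and 0.489 with the 2 groups alone. Of the 12 fits that left out 1 array, the call was made only without KO light 3 (adjusted p 0.00249), and the highest adjusted p was 0.15 without WT light 3. Sox2, a factor of lens induction and of Müller glia, was called with the exchanged arrays and not as labelled, higher by 0.45 in KO light against KO dark (adjusted p 0.00169) and by 0.50 against WT light (adjusted p 0.00165). Sox1 and Six3, with the next widest ranges of this list (0.55 and 0.46), were called in no comparison, and neither were the other 9 factors, such as Pax6, Maf and Prox1.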

How the data were processed

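The authors deposited 1 table of probe set intensities on a linear scale for the 13 arrays, brought to a common level between arrays (median intensity 141 to 146). The submitters' notes and the methods name Partek, without a version. For summarization, normalization and genome build the sources used here give nothing. The labels name Trizol and both sexes, and the methods another kit and male mice.

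The values were taken to log2. Of 34760 probe sets 21640 carry 1 gene symbol, 1321 several and 11799 none in the platform annotation, and those with 1 symbol gave 19937 genes after averaging. All 9 members have 1 probe set. A model of the 4 groups was fitted to 12 arrays (replicates 1 to 3) with limma 3.58.1 in R 4.3.3, with empirical Bayes moderation and 8 residual degrees of freedom, and Benjamini-Hochberg adjustment ran over the 19937 genes. The script was tested on simulated data. WT dark 4 was left out because the study states 3 arrays per group. For arrays, signal over background takes the place of depth and no background was used, so the number of arrays limits the precision. Mice are the replicates, and p-values measure the spread between these mice, pooled over the 4 groups in the main fit. The spread in groups outside a comparison thus enters its p-values. Correlations were computed with Python 3.11.15 and scipy 1.17.1.

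The members and gene lists (other crystallins, small heat shock proteins and heat shock factors, transcription factors of crystallin genes, reactive glia and markers of other tissues) were chosen with earlier results of these data known. Named are all members, the defining lens fibre markers, the 4 genes of a list with the widest range, genes called in any comparison, and the 10 genes most like the members. The rule also names the gene at the lowest level of a list, which was not applied because levels of different probe sets cannot be compared. Alternatives were the exchanged arrays, all 13 arrays, each array left out, the compared groups alone, unmoderated variances, quantile normalization, a pseudocount of 16, a filter on dim genes, single probe sets and the replicate number as a block.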

Additional observations from a re-analysis of the deposited data

Results flagged for a closer look

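Cryba2 was low in WT dark 3. Its gap to the nearest of the other WT dark arrays was 0.934 of the range of the 4 arrays, above the 95% critical value of Dixon's test. Chance would do this in about 1 of 20 groups, and 9 genes were looked at in this group. The array labelled WT dark 4, which was in no comparison as labelled, measured 7.46 for Crybb3 and 7.90 for Crygs (log2), each above WT dark 1 to 3.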

How the results depend on the processing

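Of the 9 members 0 were called in any of the 5 comparisons under every alternative, including each of the 12 fits that left out 1 array (lowest and highest count 0). With the replicate number as a block 0 of 9 were called too, with a lowest adjusted p of 0.335 (limma) in WT light against WT dark beside 0.42 without it. Over all genes, samples of the same number did not deviate together (r from -0.19 to 0.22 over 18 pairs), so the numbers were not taken to pair the mice. Over the 9 members alone r was 0.92 to 0.98 in the 6 pairs of replicate 1, -0.96 to 0.91 for replicate 2 and -0.51 to 0.98 for replicate 3. In the 36 pairs of unlike number it ran from -0.99 to 0.99 with a median of -0.57. An r near 1 over the members thus also occurred between arrays of unlike number. These r use deviations from the mean of 3 arrays, which cancel out within a group, and the members moved together. Values near either extreme are therefore favoured, and these r cannot decide whether the replicate number bears on the members. With the compared groups alone, 3 of 9 members had an unadjusted p under 0.05 in KO dark against WT dark (lowest adjusted p 0.384). The filter on dim genes kept 7 of 9 members.

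The number of all genes called moved far more. In KO light against WT light it was 35 as labelled, 1640 with the exchanged arrays, 1045 without KO light 3, 12 with all 13 arrays, 0 with the compared groups alone, 11 with the block and 76 with the filter on dim genes. In WT light against WT dark it was 86, 880, 857, 22, 680, 17 and 261 in the same order. Alternatives chosen after seeing the data were the fit without KO light 1 and WT light 1 and the exchanged arrays with the block, and 0 of 9 members were called in either. Without KO light 1 and WT light 1 the median member difference was -0.47 in KO light against KO dark, -0.06 in WT light against WT dark and 0.03 in KO light against WT light. In that fit 3 of 9 members had an unadjusted p under 0.05 by limma in KO dark against WT dark, and 3 of 9 in KO light against KO dark. The count was 1 of 9 in WT light against WT dark, 1 of 9 in the interaction and 0 of 9 in KO light against WT light. With 3 arrays per group and a within-group SD above 1 for Cryaa, Cryba1 and Crygs, the intervals of these genes span more than a log2 unit on either side of 0 in KO light against WT light.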

Other observations

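Markers of other tissues also differed between arrays. The mean of 8 genes of pigment epithelium and iris ran from 6.88 in WT light 2 to 8.39 in KO dark 3, with the widest ranges in Dct (3.93), Tyrp1 (3.34), Rpe65 (2.56) and Ttr (2.44). Best1, a channel gene of the pigment epithelium, was lower in WT light than in WT dark by a log2 difference of -0.30 (adjusted p 0.0478 by limma), a call made in 10 of the 23 fits run, with adjusted p from 0.00724 to 0.156. In WT light the mean of the pigment epithelium and iris genes was 7.69, 6.88 and 7.46 where that of the members was 9.24, 7.34 and 7.98, with replicate 2 lowest in both. Over 13 arrays the members' mean correlated with that of pigment epithelium and iris at r = -0.08, and at -0.45 without the 2 arrays farthest from the median of the list. In the same order r was -0.16 and -0.13 for ciliary body and cornea, -0.31 and -0.28 for skeletal muscle, -0.14 and 0.42 for rods, and 0.17 and 0.52 for Müller glia, a list that shares Vim with the reactive glia list. The sign for rods turned with the arrays left out. Of 5 lens epithelium genes (widest Sfrp1, 1.42) and 2 blood genes, 0 were called as labelled.

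With the exchanged arrays, genes of lens fibres and of crystallin-named enzymes were called in both directions. In KO light against WT light Gja3 (-0.22), Tdrd7 (-0.35) and Cryz (-0.28), a quinone reductase, were lower, and Caprin2 (0.64), an RNA-binding protein, was higher, on the log2 scale. As labelled these differences were -0.16, -0.29, -0.27 and 0.33 and were not called. Caprin2 correlated with the mean of the reactive glia genes at r = 0.94 and with the members at r = 0.35.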
